A study of Mus musculus with 12 samples.

Results

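The genes described here are the glucocorticoid receptor, Nr3c1, and 7 genes known to be induced through it: Fkbp5, Tsc22d3, Sgk1, Zbtb16, Cebpd, Cited2 and Errfi1. The list was chosen by name, with the log2 fold changes of these genes between the same 4 groups already known. The 8 genes are 8 of the 46078 genes in the count table, and all 8 passed the low-count filter that left 18252 genes for testing. Their changes between the groups are therefore a description of how the listed genes behaved, and the adjusted p-values beside them, although computed over all 18252 genes, are no independent evidence for the list.

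The libraries came from orthotopic mammary tumours of BALB/c mice. Mammary fat pad 4 had received 300000 4T1 cells with a luciferase gene; 4T1 is a mouse mammary carcinoma line that spreads to distant organs. The genotype label of all 12 libraries is WT. Treatment ran for 2 weeks from day 14 after injection, and the mice were killed on day 28. The 4 groups of 3 libraries received vehicle, MBQ-167 at 100 mg/kg 5 times a week, paclitaxel at 5 mg/kg 1 time a week, or both drugs at these doses. MBQ-167 blocks Rac and Cdc42, GTPases that shape the actin skeleton, and paclitaxel stabilises microtubules. The host mice kept their immune system, and RNA was taken from whole tumours, so cancer and host cells were measured together. The labels call the libraries biological replicates but do not say that each is a separate mouse, so a p-value here weighs a difference against library-to-library spread alone. Cells were injected on 2 occasions and no label says which library came from which, so the occasion and the treatment cannot be told apart. No label mentions a steroid treatment, and corticosterone was not among the measurements analysed here.

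Glucocorticoids, of which corticosterone is the main one in mice, bind a receptor that Hsp90 and its co-chaperones hold ready in the cytosol. The receptor with its hormone moves to the nucleus, binds response elements near its target genes and raises the transcription of many of them within hours. Fkbp5, Tsc22d3 and Zbtb16 are widely used readouts of this response, whereas Sgk1, Cebpd, Cited2 and Errfi1 also respond to growth factors, inflammation, hypoxia or other stress.

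An exact copy of an idealised form of the receptor's response element was sought upstream of RefSeq start sites of these genes. The receptor gene Nr3c1 was left out of this search. Of the listed genes induced through it, 5 had RefSeq start-site windows (GRCm38.p6), with 13 windows in all. The 250 bases before each start were searched on both strands. The motifs were an idealised glucocorticoid response element, which is AGAACA and TGTTCT separated by 3 bases of any kind, its single arm AGAACA, which every full element contains, CACGTG, the E-box bound by clock and Myc family factors, TGACTCA, an AP-1 site, and TGACGTCA, a cAMP response element. The 4 windows printed here belong to the 4 listed genes that were lower in every drug library than in every vehicle library, and of each gene the window with its rarest motif is shown. Each is printed 5′ to 3′ on the strand of its gene, with 1 motif in capitals: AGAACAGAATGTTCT in Sgk1, CACGTG in Fkbp5 and in Cited2, and TGTTCT, which is AGAACA read on the other strand, in Tsc22d3.
Sgk1: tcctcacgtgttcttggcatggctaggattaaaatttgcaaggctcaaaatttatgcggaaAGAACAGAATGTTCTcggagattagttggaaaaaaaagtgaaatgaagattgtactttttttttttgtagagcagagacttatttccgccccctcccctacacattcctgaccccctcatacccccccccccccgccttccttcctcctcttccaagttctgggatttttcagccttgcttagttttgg
Fkbp5: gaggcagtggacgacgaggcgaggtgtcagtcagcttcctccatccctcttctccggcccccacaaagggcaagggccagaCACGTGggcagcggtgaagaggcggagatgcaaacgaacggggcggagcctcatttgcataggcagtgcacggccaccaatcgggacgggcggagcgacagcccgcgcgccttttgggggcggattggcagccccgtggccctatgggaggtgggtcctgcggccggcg
Cited2: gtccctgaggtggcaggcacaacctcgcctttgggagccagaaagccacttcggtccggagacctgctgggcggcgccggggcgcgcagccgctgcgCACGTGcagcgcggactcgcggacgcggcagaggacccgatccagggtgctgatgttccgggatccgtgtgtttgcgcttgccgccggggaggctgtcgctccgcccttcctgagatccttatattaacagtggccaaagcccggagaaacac
Tsc22d3: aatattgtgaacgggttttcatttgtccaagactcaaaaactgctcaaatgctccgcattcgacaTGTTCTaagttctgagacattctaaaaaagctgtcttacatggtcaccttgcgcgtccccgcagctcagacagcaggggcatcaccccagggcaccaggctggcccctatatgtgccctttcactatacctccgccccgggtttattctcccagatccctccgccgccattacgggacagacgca
The Sgk1 window lies at chr10:21993640-21993889 on the plus strand, and its element starts at position -189 from the RefSeq start that the window precedes. All positions given here count from that start. The Sgk1 window, 1 of 6 of this gene, and the Fkbp5 window lie inside the GENCODE bounds of their genes, at internal starts. The Fkbp5 window is chr17:28486150-28486399 on the minus strand with the E-box at -169, the Cited2 window is chr10:17722978-17723227 on the plus strand with the E-box at -153, and the Tsc22d3 window is chrX:140600523-140600772 on the minus strand with the single arm at -185. The full element was rare: 3 of 32851 windows of all genes held it, a share of 0.00913%, and the Sgk1 window was 1 of the 3. That window also held a CACGTG, printed here in lower case. The single arm AGAACA was common, in 16.1% of all windows and in 4 of the 13 windows of the listed genes. CACGTG was in 6.02% of all windows and in 3 of the 13, TGACGTCA in 1.55% and in 1 window of Errfi1, and TGACTCA in 4.46% and in none of the 13. A match is only a run of letters, and a window without one says nothing about binding elsewhere: the windows hold no sequence further than 250 bases from a start. Only exact matches were searched, so elements inside the windows that differ from the idealised one were not looked for.

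Fkbp5 fell to 48.3% of the vehicle level under MBQ-167, 48.5% under paclitaxel and 60.3% in the combination, and Cited2 fell in the same 3 groups. Tsc22d3 and Sgk1 lay below every vehicle library in all 9 drug libraries but did not pass the test. Zbtb16 had 1 to 10 counts in the MBQ-167 libraries, against 23 to 33 in vehicle and 12 to 33 in the combination, and did not pass either. For the receptor gene Nr3c1, and for Cebpd and Errfi1, no comparison with vehicle passed. Of the 8 genes, Fkbp5 and Cited2 passed at an adjusted p under 0.05 (edgeR quasi-likelihood test, Benjamini-Hochberg over all tested genes) in each of the 3 comparisons with vehicle, both lower, and the 3 comparisons share the vehicle libraries. Over all genes, the share that passed was 0.0931% with MBQ-167, 5.66% with paclitaxel and 1.84% with both. The median log2 fold change of the 8 genes was -0.72, -0.61 and -0.41 in that order, and 7, 7 and 8 of the 8 estimates were below 0, while the median over all tested genes differed from 0 by less than 0.01 in each. Since these are bulk tumour samples, fewer cells of a type and less RNA per cell cannot be told apart.

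**Figure D1:**
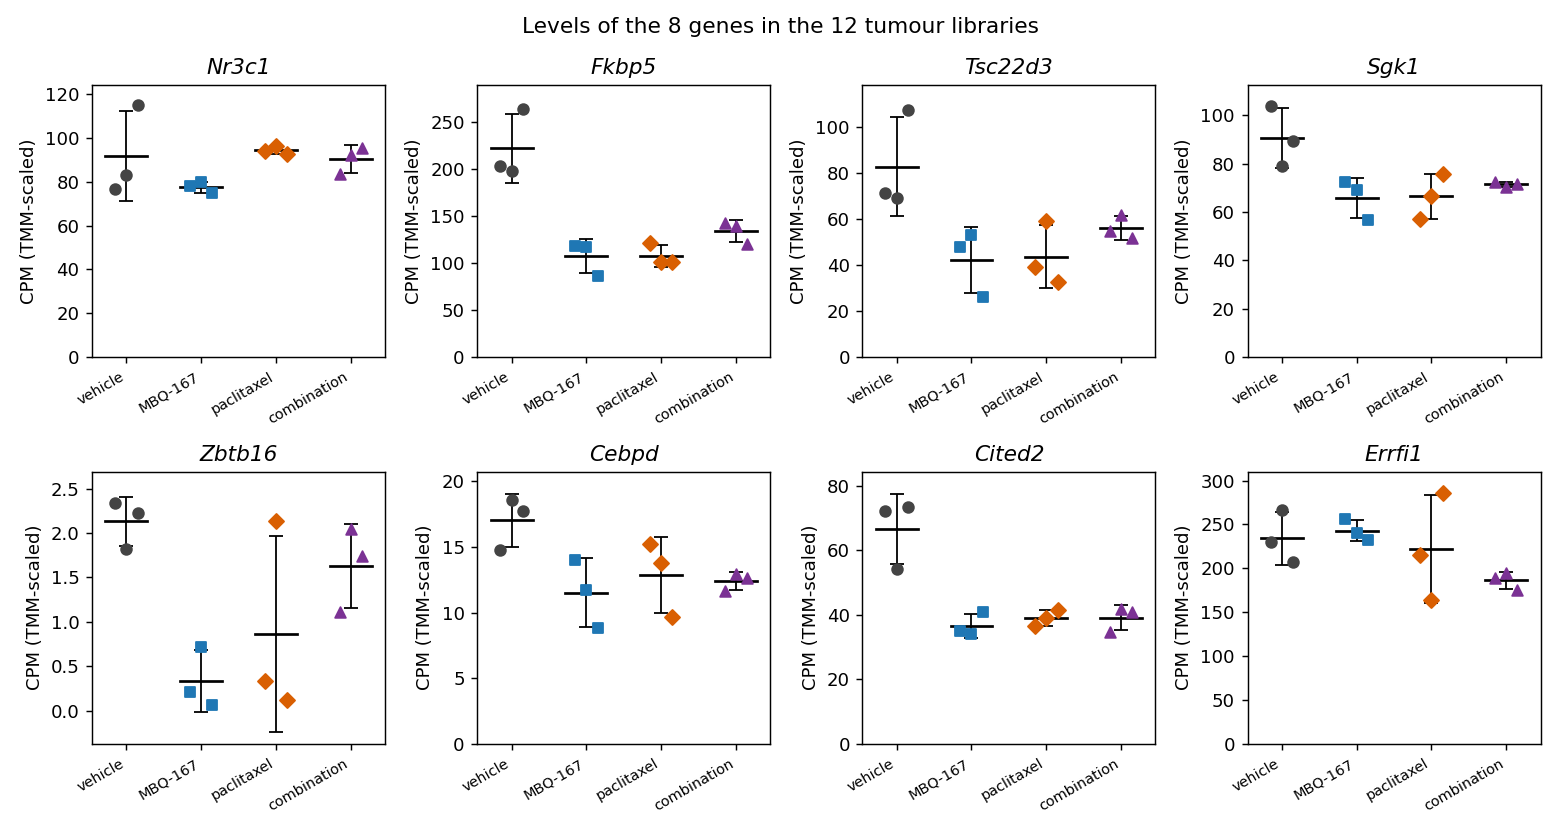
Levels of the 8 genes in CPM (counts scaled to a common, TMM-corrected library size) on linear axes, 1 point per library, with the group mean as a horizontal line and 1 SD (n = 3) as the error bar. For Fkbp5, Tsc22d3, Sgk1 and Cited2 the 9 drug libraries lie below the 3 vehicle libraries, which is not so for the other 4 genes; the SD bars of Zbtb16 in the single-drug groups run below 0, where no level can lie.

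The receptor gene Nr3c1 (ENSMUSG00000024431, chromosome 18, 39410545 to 39519421, minus strand, GRCm38) was detected in all 12 libraries. It measured 76.9, 83.3 and 115.1 CPM in vehicle libraries 1 to 3, 77.9, 79.8 and 75.0 CPM under MBQ-167, 94.3, 96.5 and 92.7 CPM under paclitaxel and 83.6, 92.3 and 95.7 CPM in the combination. The vehicle libraries spanned the range of every drug group except for 1 MBQ-167 library that lay just under it. Its log2 fold changes against vehicle were -0.24 ± 0.13 (SE) under MBQ-167, 0.04 ± 0.13 under paclitaxel and -0.02 ± 0.13 in the combination, with edgeR adjusted p-values of 0.474, 0.89 and 0.959. A miss of the threshold does not show equal levels; the 95% confidence interval for the combination against MBQ-167 ran from -0.06 to 0.51 on the log2 scale.

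Fkbp5 (ENSMUSG00000024222, chromosome 17, 28399094 to 28517527, minus strand) encodes FKBP51, a co-chaperone of Hsp90 that lowers the receptor's affinity for hormone and so closes a feedback loop. Its level was 203.5, 197.9 and 264.0 CPM in the vehicle libraries. Under MBQ-167 it was 118.5, 116.6 and 86.4 CPM, and under paclitaxel 120.8, 101.3 and 100.8 CPM. In the combination it was 142.4, 138.8 and 120.1 CPM. All 9 drug libraries were below the lowest vehicle library, and the 2 highest drug values were in the combination. Group means were 221.8 ± 36.6 (SD, n = 3), 107.2 ± 18.0, 107.6 ± 11.4 and 133.8 ± 11.99 CPM for vehicle, MBQ-167, paclitaxel and the combination. The log2 fold changes were -1.05 ± 0.15 (SE, adjusted p = 0.0168), -1.04 ± 0.15 (adjusted p = 0.00392) and -0.73 ± 0.15 (adjusted p = 0.0312) by the edgeR quasi-likelihood test.

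The paclitaxel result for Fkbp5 passed in all 6 fits that left out 1 of its libraries, and the others did not. For MBQ-167 the call was lost without MBQ-167 library 2 (log2 fold change -1.12, edgeR adjusted p = 0.0757) or library 3 (-0.92, adjusted p = 0.0989). For the combination it was lost without vehicle library 1 (-0.80) or 3 (-0.59) and without combination library 1 (-0.78), 2 (-0.76) or 3 (-0.67). A fit of only the groups compared also lost the Fkbp5 call for MBQ-167 (adjusted p = 0.131) and the combination (adjusted p = 0.135). In the combination, an offset for the GC content of transcripts gave -0.69 with an adjusted p of 0.0729.

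Tsc22d3 (ENSMUSG00000031431, chromosome X, 140539528 to 140600659, minus strand) encodes GILZ, a leucine zipper protein that carries much of the anti-inflammatory action of glucocorticoids. It measured 71.0, 69.2 and 107.3 CPM in vehicle. It measured 47.6, 53.0 and 26.0 CPM under MBQ-167, 39.0, 58.9 and 32.7 CPM under paclitaxel and 54.5, 61.8 and 51.9 CPM in the combination. No drug library reached the vehicle range, but the gap, from 61.8 to 69.2 CPM, was narrower than the spread within each group. The log2 fold changes of -0.97 ± 0.26, -0.93 ± 0.26 and -0.56 ± 0.26 (SE) had edgeR adjusted p-values of 0.152, 0.052 and 0.266. DESeq2, with its own size factors, placed the MBQ-167 and paclitaxel differences past the threshold (adjusted p = 0.02 and 0.00838), and leaving out paclitaxel library 2 gave -1.20 with an edgeR adjusted p of 0.0486.

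Sgk1 (ENSMUSG00000019970, chromosome 10, 21882184 to 21999903, plus strand), a serine/threonine kinase related to Akt that regulates ion transport and cell survival, is the gene whose window carries the full response element. Its level was 103.9, 79.2 and 89.3 CPM in vehicle, 72.4, 69.0 and 56.7 CPM under MBQ-167, 57.2, 66.7 and 75.7 CPM under paclitaxel and 72.3, 70.4 and 71.6 CPM in the combination. The groups were separated by a narrow margin, between 75.7 CPM in the highest drug library and 79.2 CPM in the lowest vehicle library. The log2 fold changes were -0.46 ± 0.14, -0.45 ± 0.14 and -0.35 ± 0.14 (SE), with edgeR adjusted p-values of 0.179, 0.0664 and 0.193. For paclitaxel the test was passed by DESeq2 (adjusted p = 0.0313) and without vehicle library 2 (-0.54, edgeR adjusted p = 0.0487).

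Zbtb16 (ENSMUSG00000066687, chromosome 9, 48654297 to 48836222, minus strand) encodes PLZF, a zinc finger transcription factor that is strongly induced by glucocorticoids in many cell types and that also marks innate-like T cells. It was the least abundant of the 8 genes, with 31, 23 and 33 counts in the vehicle libraries. It had 3, 10 and 1 counts under MBQ-167, 7, 27 and 2 under paclitaxel and 12, 33 and 33 in the combination. On the CPM scale vehicle lay at 2.34, 1.82 and 2.23, MBQ-167 at 0.215, 0.722 and 0.0609, paclitaxel at 0.337, 2.13 and 0.123 and the combination at 1.12, 2.04 and 1.74. Every MBQ-167 library was below every vehicle and every combination library, while 1 paclitaxel library reached the vehicle range and 2 did not. The log2 fold changes of -2.69 ± 0.85, -1.37 ± 0.77 and -0.37 ± 0.73 (SE) against vehicle did not pass (edgeR adjusted p = 0.206, 0.315 and 0.84). Paclitaxel library 2, the one with the high Zbtb16 level, also had the highest summed level of the 9 T and NK cell markers (33.4 CPM, against 5.00 to 22.8 CPM in the other 11 libraries) and of the 4 B cell markers (35.2 CPM). Paclitaxel library 2 had the highest summed level of the 4 adipocyte markers too, at 31.9 CPM against 0.608 to 15.0 CPM in the other 11. MBQ-167 library 3, with the lowest Zbtb16 level, had 17.1 CPM of the B cell and 10.3 CPM of the adipocyte markers. The part of these cells in the Zbtb16 values was not tested.

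Cebpd (ENSMUSG00000071637, chromosome 16, 15887286 to 15891031, plus strand) encodes a transcription factor of the acute-phase and inflammatory response. It measured 14.7, 18.6 and 17.8 CPM in vehicle, 14.0, 11.7 and 8.83 CPM under MBQ-167, 15.2, 13.8 and 9.63 CPM under paclitaxel and 11.6, 13.0 and 12.7 CPM in the combination. Only the paclitaxel libraries overlapped with vehicle. The log2 fold changes were -0.57 ± 0.20, -0.40 ± 0.20 and -0.45 ± 0.20 (SE), and none passed (edgeR adjusted p = 0.256, 0.251 and 0.249). These values are uncertain, because Cebpd overlaps Spidr on the other strand, whether counting used strand is not given in the sources used here, and the totals over the 12 libraries were alike at 2417 counts for Cebpd and 2578 for Spidr.

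Cited2 (ENSMUSG00000039910, chromosome 10, 17723218 to 17725674, plus strand) encodes a co-regulator that binds CBP and p300 and restrains hypoxia-inducible transcription. Vehicle libraries had 72.3, 54.2 and 73.3 CPM. The drug libraries had 34.8, 34.01 and 40.7 CPM under MBQ-167, 36.5, 38.9 and 41.5 CPM under paclitaxel and 34.6, 41.8 and 40.8 CPM in the combination, so the 3 drug groups occupied nearly the same range. Cited2 fell with log2 fold changes of -0.87 ± 0.14 (SE, adjusted p = 0.0254), -0.77 ± 0.14 (adjusted p = 0.00802) and -0.77 ± 0.14 (adjusted p = 0.0204) by the edgeR test. The paclitaxel call held in all 6 fits without 1 of its libraries. The MBQ-167 call was lost without vehicle library 1 (-0.81) or 3 (-0.79) and without MBQ-167 library 1 (-0.83), 2 (-0.82) or 3 (-0.95). The combination call was lost without vehicle library 1 (-0.71) or combination library 1 (-0.69) or 2 (-0.82), and a fit of only the groups compared lost both.

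Errfi1 (ENSMUSG00000028967, chromosome 4, 150853919 to 150868892, plus strand) encodes MIG6, a feedback inhibitor of the EGF receptor. It measured 229.5, 266.8 and 207.0 CPM in vehicle, 256.5, 240.1 and 232.2 CPM under MBQ-167, 215.3, 163.3 and 286.2 CPM under paclitaxel and 188.8, 194.4 and 175.5 CPM in the combination. The combination libraries lay below all vehicle and all MBQ-167 libraries, and the paclitaxel libraries spread across the whole range. The log2 fold changes were 0.05 ± 0.17, -0.08 ± 0.17 and -0.33 ± 0.17 (SE), with edgeR adjusted p-values of 0.929, 0.821 and 0.305.

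Per kilobase of exon, Errfi1 was also the most abundant of the 8 genes in vehicle tumours, at 57.8 to 74.5 CPM per kb. Cited2 (22.0 to 29.8 CPM per kb), Fkbp5 (20.9 to 27.9), Tsc22d3 (15.9 to 24.7) and Sgk1 (16.2 to 21.2) followed, and each overlapped its neighbour in this order. Nr3c1, at 10.0 to 15.0 CPM per kb, lay below all vehicle values of these 4 genes, and Cebpd (3.93 to 4.96) and Zbtb16 (0.344 to 0.444) lay lower still without overlap. On this per-length scale the receptor's own transcript thus lay below 5 of its targets in vehicle tumours.

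Fkbp5, Tsc22d3, Sgk1 and Cited2 were lower in all 9 drug libraries than in all 3 vehicle libraries, which held for 3.95% of all tested genes. For Fkbp5 the gap lay between 142.4 and 197.9 CPM and for Cited2 between 41.8 and 54.2 CPM. Without vehicle library 3, the highest library for Nr3c1, Fkbp5, Tsc22d3 and Cited2, the same 4 genes were separated, and the background rose to 8.14%. Within the drug groups the genes also varied by library: MBQ-167 library 3 was the lowest of its group for 7 of the 8 genes, all except Cited2, and paclitaxel library 3 was the lowest of its group for 5. Across the 12 libraries, as a description and with group differences and shared depth included, Pearson's r of log2 CPM was 0.87 between Fkbp5 and Tsc22d3, 0.87 between Tsc22d3 and Zbtb16, 0.81 between Fkbp5 and Cited2 and 0.03 between Fkbp5 and Errfi1. Around the group means the first pair still had r = 0.69 and the second 0.80, whereas Fkbp5 and Cited2 had -0.18. Fkbp5 and its receptor gene Nr3c1 had r = 0.32 over all libraries and 0.52 around the group means. Errfi1 had r = -0.56 with Zbtb16, -0.43 with Nr3c1, -0.29 with Tsc22d3, -0.09 with Cebpd, 0.10 with Cited2 and 0.16 with Sgk1. Around the group means these were -0.71, -0.35, -0.52, -0.30, -0.21 and 0.19, and -0.08 with Fkbp5.

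The interaction asks whether the changes under the 2 drugs add up on the log2 scale in the combination. For Fkbp5, adding the 2 single-drug changes gives -2.09, or 52.0 CPM, where the combination measured 133.8 CPM. The interaction term was 1.36 ± 0.21 (SE, 95% confidence interval 0.91 to 1.82, edgeR adjusted p = 0.035), so the combined change was smaller than the sum. Fkbp5 was the only 1 of the 8 genes to pass, and 0.0603% of all genes did. It no longer passed in 9 of the 12 fits that left out a library: without vehicle library 1 (1.42), MBQ-167 library 1 (1.44), 2 (1.43) or 3 (1.23), paclitaxel library 1 (1.45), 2 (1.32) or 3 (1.32), or combination library 1 (1.32) or 2 (1.34). With the GC offset it was 1.33 with an adjusted p of 0.0518.

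The other interaction terms had the same sign for 6 of the 7 remaining genes, with a median of 0.72 over all 8. Over all tested genes the median was 0.0003, and 9122 of 18252 terms were below 0. The interaction uses the same vehicle libraries as the comparisons with vehicle, so these signs are no separate evidence. Cited2 had 0.87 ± 0.19 (SE, edgeR adjusted p = 0.143), where the added single-drug changes give 21.4 CPM and the combination measured 39.1 CPM. Tsc22d3 had 1.34 ± 0.37 (adjusted p = 0.245), with 22.2 CPM from addition and 56.1 CPM measured, and Sgk1 had 0.56 ± 0.19 (adjusted p = 0.343), with 48.3 and 71.4 CPM. Zbtb16 had 3.69 ± 1.15 (adjusted p = 0.307), with 0.128 CPM from addition and 1.63 CPM measured. DESeq2 placed Tsc22d3 (adjusted p = 0.0341) and Cited2 (adjusted p = 0.0126) past the threshold too. Errfi1 was the exception, at -0.30 ± 0.23, with 230 CPM from addition and 186 CPM measured.

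Compared directly, the combination passed the edgeR test against neither single drug for any of the 8 genes, and 0% of all genes passed in either comparison. At an unadjusted p under 0.05 the count was 2 of 8 genes against MBQ-167 (940 of all genes) and 0 of 8 against paclitaxel (430 of all genes). DESeq2 called 1 and 5 genes, none of them listed here. Fkbp5 was higher in every combination library than in every MBQ-167 library, by 0.32 on the log2 scale (95% confidence interval -0.0019 to 0.64), and overlapped with paclitaxel (0.31, interval -0.0087 to 0.63). Zbtb16 was higher in every combination library than under MBQ-167 by 2.32 (interval 0.48 to 4.15), and Errfi1 was lower by 0.38 with an interval from -0.74 to -0.03; their edgeR adjusted p-values were 0.901 and 0.937. For Cited2 the combination was within 0.10 (interval -0.20 to 0.39) of MBQ-167 and 0.006 (interval -0.29 to 0.30) of paclitaxel on the log2 scale.

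**Figure D2:**
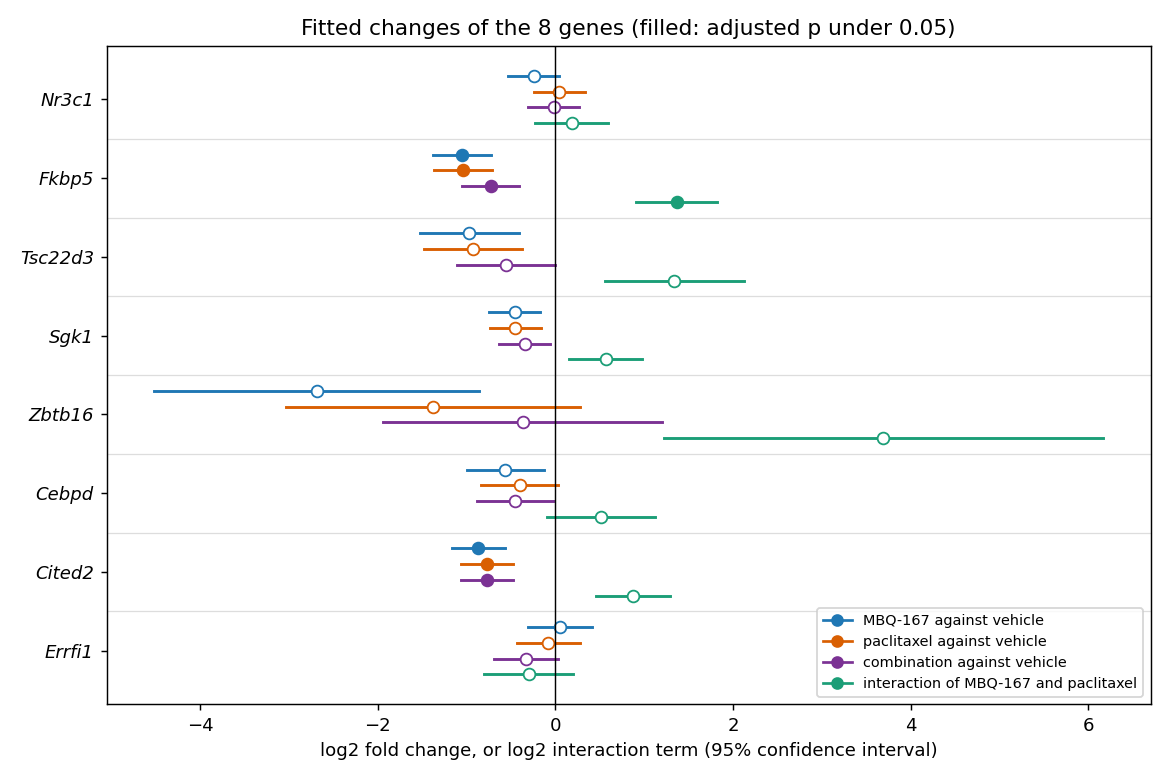
Log2 fold change against vehicle of the 8 genes in the 3 drug groups, and the log2 interaction term, each with its 95% confidence interval; filled points had an adjusted p under 0.05. Fkbp5 and Cited2 are filled in all 3 drug groups and Fkbp5 alone in the interaction, at 1.36, while the intervals of Zbtb16 are the widest.

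A list of 30 other genes that glucocorticoids induce, of which 27 were tested, had 1 that fell under MBQ-167, 12 under paclitaxel and 5 in the combination, and none that rose, where 0.0931%, 5.66% and 1.84% of all genes passed. The median log2 fold changes were -0.64, -0.66 and -0.53. Like the 8 genes, the list was written with results of these data known. Dusp1, a phosphatase that switches off MAP kinases and an immediate early gene that growth factors and stress also induce, fell in all 3: from 78.2 ± 15.3 CPM (SD, n = 3) in vehicle to 28.4 ± 2.86 under MBQ-167, 26.4 ± 4.02 under paclitaxel and 26.9 ± 1.23 in the combination. Its log2 fold changes were -1.46, -1.56 and -1.54, each with an SE of 0.16 (edgeR adjusted p = 0.0016, 0.000853 and 0.0021). Dusp1 also passed in the interaction, at 1.49 ± 0.22 (SE, edgeR adjusted p = 0.0286), and lost that call without MBQ-167 library 1, 2 or 3 (1.47, 1.57 and 1.43), paclitaxel library 2 or 3 (1.37 and 1.51) or combination library 2 (1.49). Anxa1, an anti-inflammatory phospholipid-binding protein, had the next smallest p of the list in the interaction, at 0.99 (edgeR adjusted p = 0.226).

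The other calls for paclitaxel were Per1, Zfp36, Mt1, Mt2, Ddit4, Nfkbia, Map3k6, Il1r2, Cdkn1a, Anxa1 and Rhob, and those for the combination were Per1, Zfp36, Ddit4 and Il1r2. Per1, a core component of the circadian clock, measured 61.1, 49.0 and 84.8 CPM in vehicle and 23.0 to 38.9 CPM in the 9 drug libraries. Its change under MBQ-167, -1.04 ± 0.21 (SE), did not pass (edgeR adjusted p = 0.116). Ddit4, an inhibitor of mTORC1 signalling, fell under paclitaxel by 1.02 on the log2 scale (SE 0.17, edgeR adjusted p = 0.00703), from 198.6 ± 50.0 to 98.1 ± 7.52 CPM (SD, n = 3). Zfp36, which binds and destabilises cytokine mRNAs, fell in the combination by 1.10 (SE 0.18, edgeR adjusted p = 0.0175), a call lost without combination library 1 (-1.12) or 2 (-1.13). Klf9, another direct receptor target, measured 46.3 ± 14.5 CPM in vehicle and 32.8 ± 0.684, 33.8 ± 3.66 and 36.9 ± 0.555 CPM in the drug groups, without passing.

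The size of these counts, and of the counts over all genes in the same fits, rested on single libraries. The paclitaxel count went from 12 (1033 of all genes) to 4 (230 of all genes) without paclitaxel library 2. It went to 6 without vehicle library 1 (366 of all genes) or paclitaxel library 1 (406) or 3 (707). Without vehicle library 2 it was 9 (849 of all genes), and without vehicle library 3 it was 11 (1139 of all genes). The combination count of 5 (336 of all genes) went to 1, 1 and 2 without combination library 1, 2 and 3 (29, 38 and 82 of all genes). It went to 9 without vehicle library 2 (246 of all genes). The MBQ-167 count of 1 (17 of all genes) went to 5 without vehicle library 2 (42 of all genes). DESeq2 gave 10, 13 and 12 genes for MBQ-167, paclitaxel and the combination (325, 1772 and 958 of all genes). The GC offset gave 6 for paclitaxel and 3 for the combination (422 and 75 of all genes). A fit of only the groups compared gave 4 for paclitaxel and 1 for the combination, against 214 and 7 of all genes. All 9 drug libraries lay below all 3 vehicle libraries for 10 of the 27 genes (3.95% of all genes): Ddit4, Per1, Nfkbia, Bcl6, Cdkn1a, Dusp1, Il1r2, Map3k6, Mt1 and Zfp36. Without vehicle library 3 the count was 14 (8.14% of all genes).

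**Figure D3:**
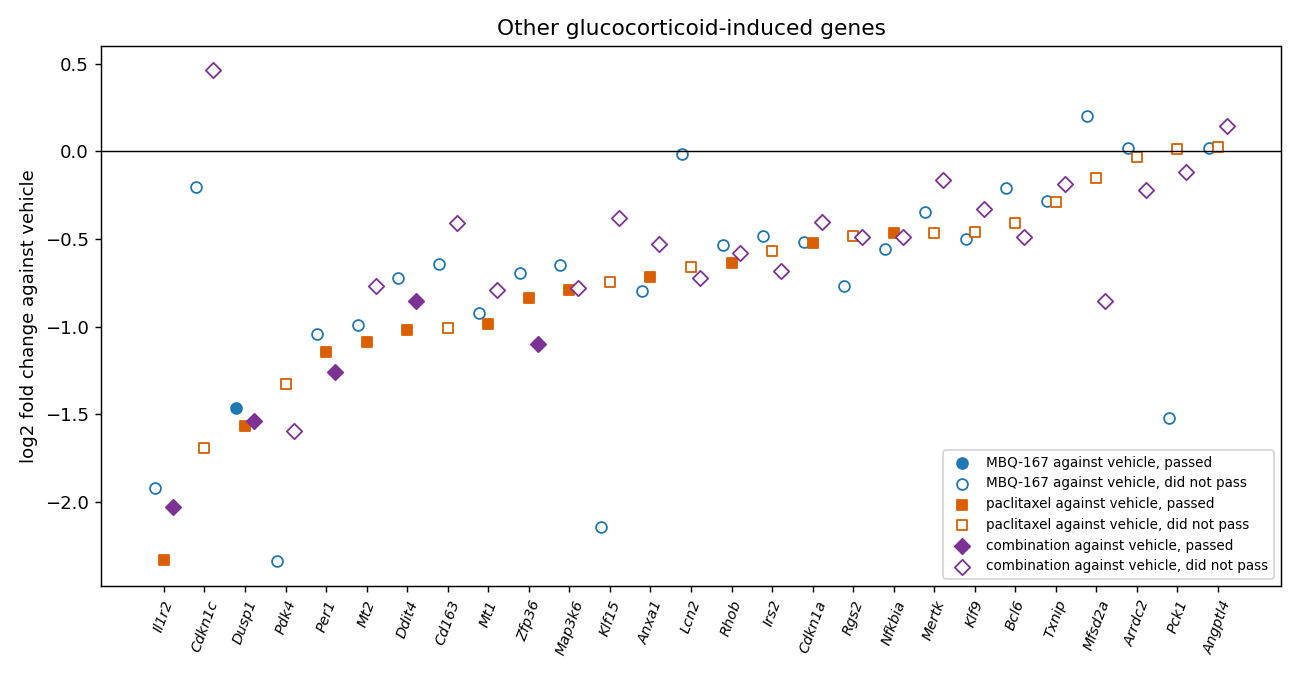
Log2 fold change against vehicle of the 27 tested genes of the list of other glucocorticoid-induced genes, ordered by the paclitaxel estimate, for MBQ-167 (circles), paclitaxel (squares) and the combination (diamonds); filled symbols had an adjusted p under 0.05. Most symbols lie below 0 in all 3 comparisons, which share the vehicle libraries, and the filled ones are 1, 12 and 5 in number.

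Of 21 genes that supply the ligand, hold the receptor ready or act as its cofactors, all tested, 3 fell under paclitaxel, the chaperones Hsp90ab1, Hspa1b and Dnajb1, where 5.66% of all genes passed. None passed the edgeR test for MBQ-167 or the combination. There 4 and 6 of the 21 had an unadjusted p under 0.05, as did 2348 and 3350 of the 18252 tested genes. DESeq2 called 2 and 2 of the 21, all lower, and 325 and 958 of all genes. The median log2 fold changes were -0.09 under MBQ-167, -0.06 under paclitaxel and -0.20 in the combination. Hsp90ab1, the constitutive Hsp90 that folds the receptor's hormone-binding domain, fell by 0.59 on the log2 scale under paclitaxel (SE 0.13, edgeR adjusted p = 0.019), and the call was lost without vehicle library 1 (-0.56) or paclitaxel library 1 (-0.61) or 2 (-0.54). Hspa1b, a stress-induced Hsp70, had -1.88 ± 0.34 under MBQ-167 (SE, edgeR adjusted p = 0.0577) and fell under paclitaxel by 1.58 (SE 0.34, adjusted p = 0.0177), a call lost without paclitaxel library 2 (-1.42). These chaperones also respond to heat shock factor, so they are no specific readout of the receptor.

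Relatives of the listed genes formed a list of 16, of which 15 were tested. Their median log2 fold changes were -0.12, -0.19 and -0.20 for MBQ-167, paclitaxel and the combination, and 1 gene passed the edgeR test, the zinc finger factor Zbtb7a, which fell under paclitaxel (-0.48 ± 0.10 SE, edgeR adjusted p = 0.0144). A single call among 15 is near the 5.66% of all genes that passed for paclitaxel. Its call was lost without vehicle library 1 (-0.45) or paclitaxel library 1 (-0.44) and with the GC offset (-0.35). For MBQ-167 and the combination 1 and 4 relatives had an unadjusted p under 0.05, as did 2348 and 3350 of the 18252 tested genes. DESeq2 called 0 and 1 relatives, and 325 and 958 of all genes. Sgk3, a kinase related to Sgk1, had estimates on the other side of 0, at 0.32, 0.56 and 0.63, and none passed (edgeR adjusted p = 0.461, 0.0708 and 0.073). Sgk2, another relative, had -1.94 in the combination (edgeR adjusted p = 0.153), and Nr3c2, the mineralocorticoid receptor, had an interaction term of -1.32 (adjusted p = 0.465).

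Inflammatory genes that glucocorticoids repress formed a list of 16, of which 15 were tested, with median log2 fold changes of 0.03, 0.16 and 0.07 for MBQ-167, paclitaxel and the combination. None passed for MBQ-167 by edgeR, where 2 (2348 of all 18252 genes) had an unadjusted p under 0.05 and DESeq2 called 1 (325 of all genes). By edgeR 1 of the 15 passed for paclitaxel and 1 for the combination, where 5.66% and 1.84% of all genes did. Cxcl10, an interferon-induced chemokine, rose under paclitaxel (1.84 ± 0.37 SE, edgeR adjusted p = 0.0135), a call lost without paclitaxel library 2 (1.80). Il1b fell in the combination (-1.03 ± 0.23 SE, edgeR adjusted p = 0.0377), a call lost without vehicle library 1 (-0.91) or 2 (-0.94) or combination library 1 (-0.98), 2 (-1.05) or 3 (-1.08). The others with the smallest p-values did not pass: the chemokines Cxcl1 under MBQ-167 (-0.89, edgeR adjusted p = 0.252) and Ccl5 under paclitaxel (1.46, adjusted p = 0.128), and the prostaglandin synthase Ptgs2 in the combination (-0.60, adjusted p = 0.131).

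The libraries also differed in their host cells, and for some cell types this moved with the groups. The 12 neutrophil markers summed to 498.1, 379.5 and 1603 CPM in vehicle and to between 212.8 and 346.4 CPM in the 9 drug libraries, and none was at 0 in a whole group. Mmp9 was 1 of the 12 and is also in the list of inflammatory genes. Its part of the drug sums ran from 68.1 of 222.2 CPM in MBQ-167 library 1 to 233.4 of 325.1 CPM in combination library 3. Its means were 142.9 CPM in vehicle and 109.2, 128.7 and 151.6 CPM under MBQ-167, paclitaxel and the combination. Over the 12 markers the median log2 fold changes were -1.77, -2.93 and -2.68. Of the 12 markers, 0 passed as lower under MBQ-167, 10 under paclitaxel and 9 in the combination by the edgeR test. Over all genes 0.0931%, 5.66% and 1.84% passed. Without vehicle library 3 the marker counts were 0, 9 and 6, where 14, 1139 and 416 of all genes passed. Under MBQ-167 11 of the 12 markers (2348 of all 18252 genes) had an unadjusted p under 0.05 and DESeq2 called 3 (325 of all genes). Their mean log2 CPM did not overlap between vehicle (3.90 to 6.198) and the drug libraries (1.86 to 3.50), as the levels of Fkbp5, Tsc22d3, Sgk1 and Cited2 did not. With this level as a covariate, Fkbp5 had log2 fold changes of -0.81, -0.65 and -0.37 for MBQ-167, paclitaxel and the combination (edgeR adjusted p = 0.115, 0.162 and 0.411), and Cited2 had -0.81, -0.67 and -0.68 (adjusted p = 0.133, 0.176 and 0.187). The Dusp1 interaction was then 1.26 (edgeR adjusted p = 0.14) and the Fkbp5 interaction 1.09 (edgeR adjusted p = 0.142), and Ddit4 under paclitaxel had -0.46. Of the 27 other glucocorticoid-induced genes, 1, 2 and 1 then passed for MBQ-167, paclitaxel and the combination. Over all genes 11, 172 and 48 passed in these fits. Because the covariate separates vehicle from the drugs, neutrophil content and treatment cannot be told apart here.

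By mean log2 CPM, MBQ-167 library 3 had the highest neutrophil level of the 9 drug libraries (3.50). It had the lowest Fkbp5 (86.4 CPM) and Tsc22d3 (26.0 CPM) of all 12. By summed CPM, MBQ-167 library 2 was the highest drug library, at 346.4 CPM against 333.5 CPM in library 3. Its Fkbp5 was 116.6 CPM and its Tsc22d3 53.0 CPM. In the vehicle group, library 3 had the most neutrophil signal and the most Fkbp5 and Tsc22d3. Vehicle libraries 1 and 2, with 4.15 and 3.90, lay above every drug library in neutrophil level and in both genes. The mammary carcinoma markers, among them Epcam, Krt8 and Krt18, summed to 919 to 2759 CPM and none of the 6 was at 0 in a whole group, so the defining markers of the labelled tumour were present. Their level differed between the groups, with overlap: summed CPM was 951.9 to 2759 in vehicle and 918.9 to 1493 in the drug libraries, with median log2 fold changes of -0.88, -0.78 and -0.68 for MBQ-167, paclitaxel and the combination. By edgeR 0, 1 and 0 of the 6 fell, 3, 2 and 2 had an unadjusted p under 0.05, and DESeq2 called 2 lower in each. Of all 18252 genes, 0.0931%, 5.66% and 1.84% passed by edgeR, and 2348, 4126 and 3350 genes had an unadjusted p under 0.05. DESeq2 called 325, 1772 and 958 of them. The T and NK cell markers had median log2 fold changes of 0.86, 0.93 and 0.88, with 0, 1 and 1 of 9 higher by edgeR and 4, 3 and 1 at an unadjusted p under 0.05, and their summed level was 5.00 to 14.5 CPM in vehicle and 14.97 to 33.4 CPM in the drug libraries. The erythroid markers summed to 256.1 to 264.7 CPM in vehicle and 14.5 to 107.3 CPM in the drug libraries. By edgeR 0, 2 and 3 of their 5 tested markers fell under MBQ-167, paclitaxel and the combination. An unadjusted p under 0.05 was found for 4, 4 and 5, and DESeq2 called 1, 3 and 3 lower. Their median log2 fold changes were -1.72, -2.22 and -2.58. No macrophage, endothelial or fibroblast marker passed by edgeR in any comparison when all 12 libraries were fitted. The median log2 fold changes of these 3 cell types against vehicle lay between -0.33 and 0.14. Within vehicle alone the macrophage markers summed to 818.7 to 3861 CPM, lowest in library 3. Without that library 1 of the 8 macrophage markers passed as lower under paclitaxel by edgeR, where 1139 of all genes passed. No B cell, adipocyte or skeletal muscle marker passed by edgeR when all 12 libraries were fitted. The correlation of log expression deviation with transcript GC content was 0.116 to 0.293 in vehicle, 0.006 to 0.139 under MBQ-167, -0.287 to -0.114 under paclitaxel and -0.192 to -0.027 in the combination. The part of carcinoma, T and NK and red cell content in the changes of the listed genes was not tested, and that of GC content only by the offset fits.

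**Figure D4:**
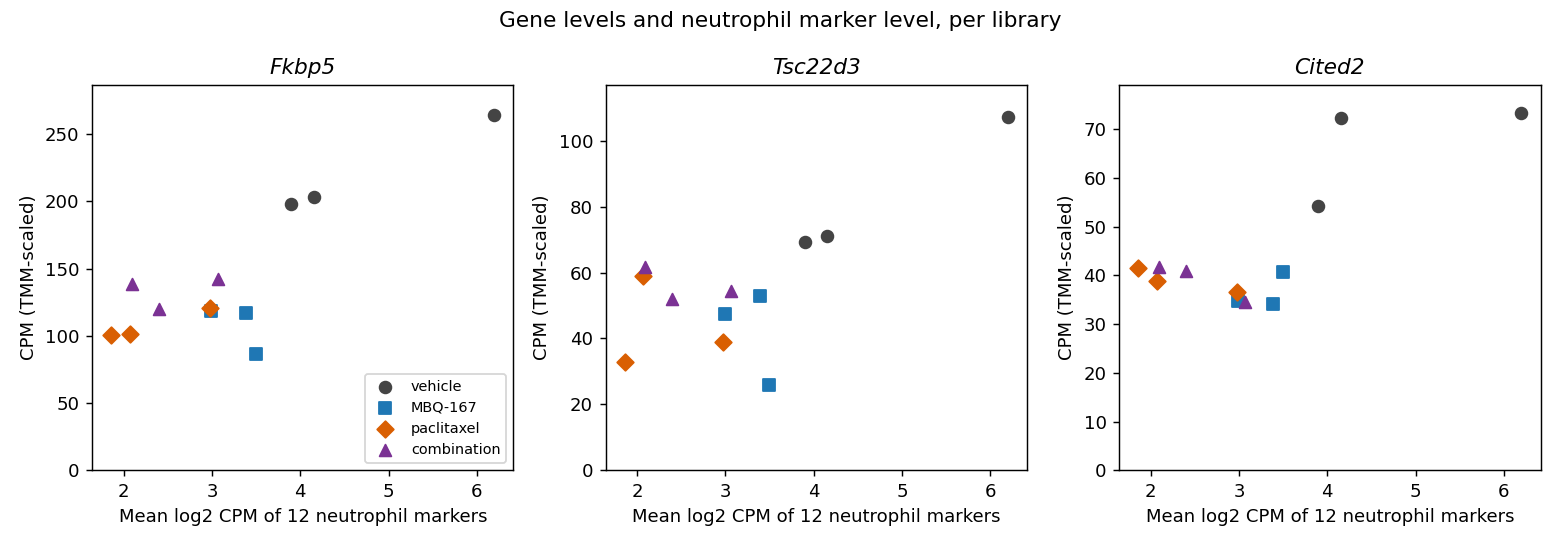
Level of Fkbp5, Tsc22d3 and Cited2 (CPM, TMM-scaled, linear axis) against the mean log2 CPM of the 12 neutrophil markers, 1 point per library, coloured by group. Vehicle libraries sit to the right of and above all drug libraries in the 3 panels. Among the drug libraries the 1 with the highest mean log2 CPM of the markers (3.50) has the lowest Fkbp5, but it is not the highest by summed CPM.

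The genes whose pattern over the 12 libraries was most like that of Fkbp5, out of 15868 genes averaging 1 CPM or more, were Dhrs7 (Pearson's r of log2 CPM 0.958), Klf6 (0.953), Klf2 (0.933), Fos (0.930) and Gm2895 (0.929). Dhrs7, a short-chain dehydrogenase, measured 17.1 CPM in vehicle and 10.3, 9.53 and 10.9 CPM under MBQ-167, paclitaxel and the combination. Fos, a subunit of AP-1 and an immediate early gene, measured 57.1 CPM in vehicle and 10.95, 10.4 and 14.9 CPM in the drug groups. Around the group means Dhrs7 kept r = 0.89 with Fkbp5, and Fos had 0.37. Most like Tsc22d3 were Vwa7 (0.931), Sra1 (0.877), Alkbh5 (0.876), Clic1 (0.876) and the listed gene Zbtb16 (0.873). These likenesses are a description of 12 libraries with large group differences, and no p-value is attached to them.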

How the data were processed

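The authors deposited raw read counts per gene, with 1 column per library. HISAT2, GRCm38, HTSeq and DESeq2 are named, per the submitters' processing notes. Not given in the sources used here are their versions, the annotation version, strandedness and the rule for multi-mapping reads. Library totals ran from 11540557 to 17001562 counts, and 15275 of the 46078 genes had none.

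Genes were kept by filterByExpr (minimum count 10), and 1 quasi-likelihood model of edgeR 4.0.16 (R 4.3.3) with TMM scaling was fitted to the 12 libraries and 18252 genes, leaving 8 residual degrees of freedom (biological coefficient of variation 0.214). The 6 comparisons (3 with vehicle, 2 of the combination with a single drug, and the interaction) were adjusted by Benjamini-Hochberg over all genes at a threshold of 0.05. The interaction is the log2 change in the combination less the sum of the 2 single-drug changes. CPM values are TMM-scaled. The fit was tested on simulated data. Gene models, lengths and GC content came from GENCODE vM21, and 45143 identifiers had a symbol. Promoter windows came from RefSeq. The separation of libraries without vehicle library 3 was added after seeing the data.

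The members and lists were chosen with earlier results of these data known. Named are the 8 members, the 2 genes with the smallest p in each of 4 lists and comparisons with vehicle or interaction, and the 5 genes most like Fkbp5 and Tsc22d3; Klf9, Mt1 and the other called genes named only as counted members of a list were named after their values were seen. The alternatives were DESeq2 1.42.0, RLE size factors, 2 other filters, protein-coding genes only, only the groups compared, a GC offset, the neutrophil marker level as a covariate, a replicate block and leaving out each library.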

Additional observations from a re-analysis of the deposited data

Results flagged for a closer look

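Among the 8 listed genes and the genes of the 4 other lists, 2 passed the edgeR interaction test, as did 11 of all tested genes. That test asks whether the effect of 1 drug differs by whether the other is given. For Fkbp5 the interaction term was 1.36, and for Dusp1 it was 1.49. Both are positive, so the combination was higher than the sum of the single-drug changes. All 9 drug libraries were below all 3 vehicle libraries for both genes. Both interaction calls were lost in several fits without 1 library, and with the neutrophil covariate.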

How the results depend on the processing

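Of the listed genes, 2 passed for each of MBQ-167, paclitaxel and the combination against vehicle, and 1 in the interaction. For MBQ-167 the count was 4 with no filter and 0 with only the groups compared or the neutrophil covariate; for paclitaxel it was 4 with DESeq2 and 0 with the covariate. For the combination it was 0 with only the groups compared, 1 with the GC offset and 0 with the covariate. In the interaction it was 3 with DESeq2, 4 with no filter and 0 with the GC offset or the covariate; the fit of only the groups compared was not run there. Leaving out 1 library gave 0 to 2 for MBQ-167, 2 to 3 for paclitaxel, 0 to 2 for the combination, 0 to 1 for the interaction and 0 for the combination against either drug. Of 760 results of single listed genes under the alternatives, 689 kept direction and side of the threshold, 37 lost a call, 14 gained one and 20 changed sign.

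The following estimates changed sign. With the neutrophil covariate, Errfi1 had -0.13 for MBQ-167, Nr3c1 had 0.33 for the combination and -0.082 in the interaction, Ccl5 had -0.24 for paclitaxel, and Cited2 had -0.0016 for the combination against paclitaxel. The GC offset gave Nr3c1 -0.25 for paclitaxel and Cited2 -0.031 for the combination against paclitaxel, and protein-coding genes only gave Nr3c1 0.0013 for the combination. Without 1 library, Errfi1 ran from -0.032 to 0.15 for MBQ-167 and from -0.31 to 0.10 for paclitaxel. Nr3c1 ran from -0.077 to 0.24 for paclitaxel, from -0.14 to 0.18 for the combination and from -0.014 to 0.30 in the interaction. Cebpd ran from -0.054 to 0.27 for the combination against MBQ-167 and from -0.22 to 0.090 against paclitaxel, where Cited2 ran from -0.040 to 0.084. The cause was not tested.

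Over all genes, 17, 1033, 336 and 11 passed for MBQ-167, paclitaxel, the combination and the interaction. DESeq2 gave 325, 1772, 958 and 153, no filter 392, 1554, 849 and 197, and only the groups compared 5, 214 and 7 without the interaction. The GC offset gave 422 for paclitaxel and 75 for the combination, and the covariate 11, 172, 48 and 6. Leaving out 1 library gave 5 to 42, 230 to 1139, 29 to 416 and 2 to 16. Deviations of same-numbered libraries had r from -0.175 to 0.252, over 0.1 in 7 of 18 pairs (8 of 36 with different numbers), so the numbers were not taken as a pairing of all groups. The 3 pairs of vehicle and combination were all over 0.1 (0.108, 0.215 and 0.188), and there the block changed no call of a listed gene. With the replicate block, 2, 3 and 2 listed genes passed for MBQ-167, paclitaxel and the combination, 0 against either drug and 1 in the interaction, Tsc22d3 under paclitaxel being the added gene (-0.98). Over all genes the block gave 24, 1092 and 300, then 0 against either drug and 13 in the interaction.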
